A study of Mus musculus with 36 samples.

Results

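Oxidative phosphorylation genes encode the respiratory chain and ATP synthase of the inner mitochondrial membrane, together with a few proteins that build or link these enzymes. Members were chosen by name and not by any measured value. They are protein-coding genes with a symbol of the Nduf, Sdha to Sdhd, Uqcr, Cox5 to Cox8, Atp5 or mt- families. Each had at least 100 counts summed over all libraries. The pattern matched 105 rows of the count table, of which 5 lay below the minimum, and 100 members remained of 17994 genes tested. Of these, 87 are nuclear and 13 are encoded on mitochondrial DNA. The nuclear members comprise 77 subunits (36 of complex I, 4 of complex II, 8 of complex III, 13 of complex IV and 16 of complex V), 8 assembly factors of complex I and 2 others, Cox7a2l and Atp5s.

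Livers of 36 mice were sequenced, 3 per genotype at each of 6 sampling times, ZT2 to ZT22 in steps of 4 h, where ZT (zeitgeber time) counts hours from lights on. THRB KO mice are homozygous for the whole-body Thrb allele of the B6.129S1-Thrbtm1Df/J strain, which affects both isoforms of thyroid hormone receptor beta. The controls, called THRB WT, are heterozygous for the same allele and not wild type, so each comparison sets no functional copy against 1 functional copy. All mice were adult males on the C57Bl/6NCrl background, on chow, under 12 h light and 12 h dark. Because the knockout affects every tissue, liver-intrinsic and systemic influences cannot be told apart. The authors name increased serum T3, the active thyroid hormone, among its known effects outside the liver.

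Complex I (NADH dehydrogenase) and complex II (succinate dehydrogenase) pass electrons to coenzyme Q, complex III hands them to cytochrome c, complex IV reduces oxygen, and complex V (ATP synthase) uses the resulting proton gradient. All of these except complex II mix subunits from nuclear genes with a few hydrophobic subunits from mitochondrial DNA, which is transcribed as long polycistronic RNAs that are cut and polyadenylated. Nuclear subunit genes are known targets of the factors NRF1, GABPA, ESRRA and YY1 and of the PGC-1 coactivators. Thyroid hormone is known to raise hepatic oxygen consumption.

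Libraries held between 29063273 and 42530551 gene counts. Hepatocyte markers summed to between 62780 and 93000 CPM (counts scaled to a common library size) in every library. Skeletal muscle markers reached at most 0.186 CPM, adipocyte markers at most 0.162 CPM and pancreatic acinar markers at most 0.822 CPM. Erythroid markers summed to 208 to 911 CPM in THRB WT and 135 to 584 CPM in THRB KO. Kupffer cell markers came to 121 to 360 and 126 to 248 CPM, and stellate cell markers to 77.6 to 196 and 116 to 228 CPM. Of the markers that could be tested 0 were called by genotype, among them 0 of 6 for hepatocytes, against 0.950% of all genes. Of the skeletal muscle and adipocyte markers 0 reached the minimum for testing, and of the 4 acinar markers 1 did. Thrb itself had 24.3, 27.9 and 38.5 CPM (lowest, median and highest of 18) in THRB WT and 26.2, 31.9 and 37.7 CPM in THRB KO. The ranges overlapped, and the log2 difference was 0.13 ± 0.05 (SE, adjusted p = 0.309, edgeR). A count over the whole gene does not read the altered part of the receptor, so it does not check the genotype labels. In whole liver, fewer cells of a type and less RNA per cell cannot be told apart.

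Of the 13 mitochondrial members, 7 have a near-identical copy on chromosome 1: mt-Co1, mt-Co2, mt-Atp6, mt-Co3, mt-Nd3, mt-Nd4l and mt-Nd4. A read that matches both places could be counted for either, so the values of these genes are uncertain. The search covered annotated transcripts only, and it found no such copy of mt-Atp8, which lies between mt-Co2 and mt-Atp6. The copies of these neighbours lie at chr1:24614885-24615565 and chr1:24613974-24614651. The bases between them were not searched, so a copy of mt-Atp8 there would have been missed. Between chr1:24611535-24616197 (GRCm38) lie 7 pseudogenes, on the minus strand, that match mitochondrial members at 99% or more. Gm28661 is identical to mt-Co2 over 681 bases, Gm10925 to mt-Atp6 over 678 bases, Gm28437 to mt-Co3 over 783 bases, Gm10222 to mt-Nd4l over 294 bases and Gm28439 to the first 876 of the 1378 bases of mt-Nd4. Gm29216 covers 483 bases of mt-Co1 with 1 mismatch, and Gm28438 covers 345 bases of mt-Nd3 with 1 mismatch, T3C, counted from the first base of the mt-Nd3 transcript with the mitochondrial base first. The following stretches, from the GENCODE transcripts of GRCm38, are shown because a read from either place would be the same or differ by 1 base, marked by a capital. The mt-Nd3 stretch lies at chrMT:9459-9501 and the mt-Co2 stretch at chrMT:7013-7092, both on the plus strand.
mt-Nd3: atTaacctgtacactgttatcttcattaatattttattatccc
Gm28438: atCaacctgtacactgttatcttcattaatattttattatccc
mt-Co2: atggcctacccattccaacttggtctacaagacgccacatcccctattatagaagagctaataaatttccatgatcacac
Gm28661: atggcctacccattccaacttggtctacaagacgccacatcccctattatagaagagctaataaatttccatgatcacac

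Promoter windows of the nuclear members were searched for the letters of 6 known motifs, since members that share factors could move together. RefSeq windows (GRCm38.p6, 250 bases before to 50 bases after the start) were found by symbol for 72 of the 87 nuclear members. On either strand, the NRF1 letters GCGCATGCG occurred in 10 of the 72 windows (13.9%, against 1.95% of 27025 genes with a window), the ETS letters CCGGAAG read by GABPA in 18 (25.0%, against 9.93%), the YY1 letters AAGATGGCG in 8 (11.1%, against 1.64%) and the ERRE letters TCAAGGTCA read by ESRRA in 2 (2.78%, against 0.466%). The letters of the clock-related E-box, CACGTG, occurred in 5 (6.94%, against 8.09%) and those of the D-box, TTATGTAA, in 1 (1.39%, against 1.11%). The NRF1 and E-box letters overlap their own reverse complements, and a gene was counted once for each motif. The windows below, on the strand of each gene with the matched letters in capitals, are a selection of the matches, with those of the 3 c subunit genes of ATP synthase among them. Among other members described further on, Cox8a, Uqcr11, Atp5l and Ndufc1 also held a match. They lie at chr4:24897955-24897993 (plus strand, Ndufaf4), chr5:115349097-115349135 (minus, Cox6a1), chr15:102671066-102671104 (minus, Atp5g2), chr5:108434426-108434464 (minus, Atp5k), chr17:56717687-56717725 (plus, Ndufa11), chr7:30626121-30626157 (minus, Cox6b1), chr8:83566723-83566757 (plus, Ndufb7), chr9:50603874-50603910 (minus, Sdhd), chr11:96075655-96075690 (minus, Atp5g1) and chr2:73911355-73911393 (minus, Atp5g3).
Ndufaf4, NRF1: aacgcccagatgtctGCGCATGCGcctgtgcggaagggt
Cox6a1, NRF1: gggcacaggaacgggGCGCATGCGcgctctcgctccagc
Atp5g2, NRF1: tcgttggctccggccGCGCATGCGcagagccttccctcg
Atp5k, NRF1: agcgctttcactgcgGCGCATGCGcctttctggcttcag
Ndufa11, NRF1: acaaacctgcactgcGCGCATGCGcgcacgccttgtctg
Cox6b1, ETS: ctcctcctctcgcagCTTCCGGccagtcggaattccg
Ndufb7, ETS: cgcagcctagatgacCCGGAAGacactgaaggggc
Sdhd, ETS: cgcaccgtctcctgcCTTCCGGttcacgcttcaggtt
Atp5g1, E-box: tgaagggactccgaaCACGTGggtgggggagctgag
Atp5g3, ERRE: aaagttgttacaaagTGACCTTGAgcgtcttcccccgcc

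The 13 mitochondrial members took 5.49% to 7.14% of all gene counts and the 87 nuclear members 1.36% to 1.61%. The mitochondrial share was 6.31% ± 0.44 (THRB WT, SD, n = 18) and 6.43% ± 0.50 (THRB KO), and the ratio of mitochondrial to nuclear counts was 4.18 ± 0.34 and 4.26 ± 0.27. In both measures the genotypes overlapped and differed by less than 1 SD. By sampling time, the mitochondrial share was lowest at ZT6, at 5.94% ± 0.43 (SD, n = 6), and highest at ZT22, at 6.78% ± 0.32, and its range of 5.50% to 6.68% at ZT6 overlapped that of 6.38% to 7.14% at ZT22. The nuclear share stayed between a mean of 1.49% at ZT6 and 1.53% at ZT18.

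Although all mitochondrial members but mt-Nd6 are read from the same strand, their levels per length (CPM per kb of exon, mean of 36 mice) ran from 16.1 to 15210. The catalytic core of cytochrome c oxidase, mt-Co1, was highest at 15210, followed by mt-Cytb, the core of complex III, at 10010. Of the complex I genes, mt-Nd1 stood at 7947 CPM per kb, mt-Nd2 at 7301, mt-Nd4 at 4920, mt-Nd6 at 3134 and mt-Nd5 at 2421. Below these followed mt-Co2 at 477 CPM per kb, mt-Atp6 at 396, mt-Co3 at 199, mt-Nd4l at 196, mt-Nd3 at 36.5 and mt-Atp8 at 16.1. The 6 low genes are those between chrMT:7013-10173, and no mouse had a level of mt-Co2, up to 966 CPM per kb, that reached the lowest level of mt-Nd5, 1614 CPM per kb. Within the low group the order of neighbours was weak: mt-Co2 was above mt-Atp6 in 23 of 36 mice and mt-Co3 above mt-Nd4l in 21 of 36. In the upper group mt-Cytb was above mt-Nd1 in 35 of 36 mice and mt-Nd1 above mt-Nd2 in 32 of 36, and only the step from mt-Nd2 to mt-Nd4 had ranges over mice that did not overlap.

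**Figure D1:**
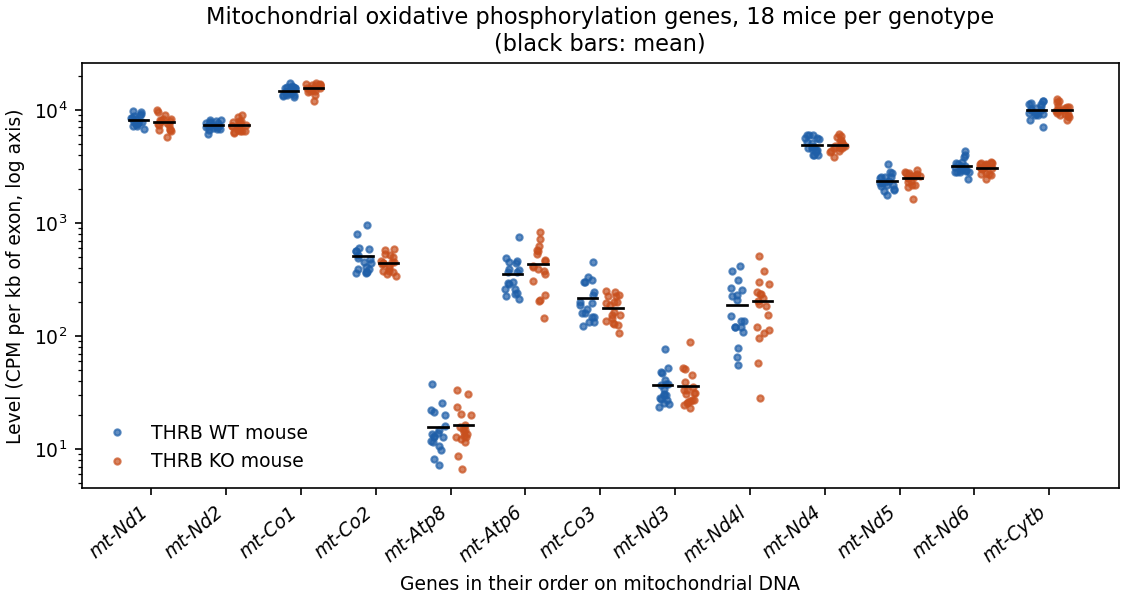
Level of each mitochondrial gene in CPM per kb of exon (log axis) in each of 18 THRB WT and 18 THRB KO mice, in gene order along mitochondrial DNA; black bars are means. The 6 neighbouring genes from mt-Co2 to mt-Nd4l sit below 1000 CPM per kb and scatter most, whereas the other 7 sit above 1600 in every mouse.

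The same 6 genes also varied most between mice among the mitochondrial members. Their coefficient of variation over the 36 mice was 26.9% for mt-Co2, 37.0% for mt-Co3, 38.6% for mt-Nd3, 41.4% for mt-Atp6, 44.1% for mt-Atp8 and 56.4% for mt-Nd4l, whereas that of the other 7 lay between 8.71% (mt-Co1) and 14.8% (mt-Nd5). The copies of 5 of them on chromosome 1 took a changing share of the counts of member and copy together: 27.8% to 51.1% for mt-Co2, 17.8% to 49.0% for mt-Atp6, 20.7% to 45.3% for mt-Co3, 10.9% to 65.2% for mt-Nd4l and 55.5% to 88.2% for mt-Nd3. For the long, abundant genes the share was small, at most 0.972% for mt-Nd4 and 1.44% for mt-Co1. With member and copy summed, the coefficient of variation was 19.1% for mt-Co2, 27.8% for mt-Co3, 28.5% for mt-Nd3, 31.5% for mt-Atp6 and 45.3% for mt-Nd4l. How reads with several matches were counted is not given in the sources used here, and the part of these copies in the low levels was not tested. mt-Atp8 and mt-Atp6 share the bases chrMT:7927-7969, and mt-Nd4l and mt-Nd4 share chrMT:10167-10173. The libraries do not keep strand, so reads of mt-Nd6, the minus-strand gene, cannot be told apart from antisense RNA.

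Among nuclear members, the levels per length (CPM per kb of exon) ran from 0.436 to 608. The highest were 2 small subunits of complex IV, Cox6a1 at 608 ± 62.7 (SD, n = 36) and Cox8a at 582 ± 49.3, the alpha and beta subunits of the catalytic head of ATP synthase, Atp5a1 at 358 ± 16.4 and Atp5b at 312 ± 15.9, and the complex III subunit Uqcr11 at 309 ± 39.4. The ranges of Cox6a1 and Cox8a overlapped, as did those of Atp5a1, Atp5b and Uqcr11, while both of the former lay above all of the latter in every mouse. Every nuclear member was thus below the means of the 7 abundant mitochondrial genes per length.

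Where a subunit has tissue isoforms, the form known from liver dominated. Cox7a2, the form of most tissues, had 117, 128 and 155 CPM (lowest, median, highest) in THRB WT and 105, 128 and 151 CPM in THRB KO, against 1.52, 2.73 and 4.19 CPM and 2.44, 3.09 and 4.18 CPM of Cox7a1, the form of heart and muscle. Cox6b1 had medians of 223 and 210 CPM, against 0.407 and 0.411 CPM of the testis form Cox6b2. Ndufa4, a complex IV subunit, had medians of 350 and 335 CPM, against 2.01 and 1.78 CPM of Ndufa4l2, a hypoxia-induced relative. The muscle forms Cox6a2 and Cox8b had sums of only 50 and 43 counts over all libraries, Cox7b2 had 1, and Cox8c and a second row named Atp5o had 0. Atp5g1, Atp5g2 and Atp5g3 all encode the same mature c subunit of the ATP synthase rotor. Per kb of exon they stood at 38.1, 68.2 and 205 CPM, and in CPM without length Atp5g1 was above Atp5g2, so the order of these 2 depends on the scale.

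Genotype, adjusted for sampling time, gave no call among the members. Of all tested genes 171 (0.950%) passed an adjusted p of 0.05 with edgeR, 91 (0.506%) higher and 80 (0.445%) lower in THRB KO. Of the 100 members 0 passed, and 7 members had an unadjusted p under 0.05, against 12.1% of all genes. DESeq2 called 3 members, Atp5b, Ndufs1 and Uqcrc2, all higher in THRB KO, against 1.98% of all genes for which it gave an adjusted p. The differences were small: the median log2 fold change (THRB KO against THRB WT) was -0.02 over all members, -0.03 over the nuclear and -0.00352 over the mitochondrial ones, against -0.00112 over all genes tested, and 35 members were higher and 65 lower in THRB KO. A difference in mean log2 CPM of the same sign at all 6 sampling times was seen for 4 members (Ndufs1, Atp5a1 and mt-Nd5 higher, Ndufaf7 lower), against 8.14% of all genes. For mt-Nd5 this holds on the log2 scale alone, since at ZT10 THRB WT averaged 4524 CPM and THRB KO 4506 CPM.

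By complex, 11 of 36 nuclear subunits of complex I were higher in THRB KO (median -0.03 on the log2 scale), 4 of 4 of complex II (0.03), 3 of 8 of complex III (-0.01), 5 of 13 of complex IV (-0.01) and 5 of 16 of complex V (-0.03). Of the 8 assembly factors 1 was higher (median -0.05). Summed within each mouse, nuclear complex I genes reached 3768 ± 323 CPM (THRB WT, SD, n = 18) and 3702 ± 295 CPM (THRB KO), and complex V genes 5522 ± 259 and 5578 ± 260 CPM. These sums differed by less than the spread between mice.

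Ndufs1 (chr1:63143596-63176833, GRCm38), an iron-sulphur subunit of the electron entry arm of complex I, came nearest to a call. It had 91.7, 105 and 123 CPM (lowest, median, highest) in THRB WT and 101.4, 116 and 129 CPM in THRB KO. The THRB KO mice were shifted upward with a wide overlap. Its log2 fold change was 0.12 ± 0.03 (SE, 95% confidence interval 0.05 to 0.18, adjusted p = 0.0772 by edgeR), and KO means were higher at 6 of 6 sampling times. The adjusted p was 0.0296 with DESeq2. With edgeR it was 0.505 without the mice of letter a, 0.0958 without b, 0.539 without c and 0.294 with sampling times pooled. With a covariate for exon length, described below, the log2 fold change was 0.07 (edgeR, adjusted p = 0.379).

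The log2 fold changes farthest from 0 were those of mt-Co3 and mt-Atp6, both among the low and variable mitochondrial genes. mt-Co3, a core subunit of complex IV, had 96.7, 151 and 357 CPM in THRB WT and 82.8, 137 and 197 CPM in THRB KO, a log2 fold change of -0.29 ± 0.14 (SE, adjusted p = 0.411). mt-Atp6, the proton channel subunit of ATP synthase, had 144, 227 and 509 CPM in THRB WT and 98.03, 280 and 570 CPM in THRB KO, at 0.27 ± 0.17 (adjusted p = 0.557). Both pairs of groups overlapped over most of their range. mt-Co2 had 246, 319 and 661 CPM in THRB WT and 231, 301 and 402 CPM in THRB KO, at -0.17 ± 0.10 (adjusted p = 0.546). mt-Nd4l, at 0.09 ± 0.25 (adjusted p = 0.931), turned to -0.13 when the mice of letter a were left out, and its 95% confidence interval reached from -0.42 to 0.61. mt-Co1, the most abundant member, had 20120, 23150 and 26470 CPM in THRB WT and 18540, 24130 and 26910 CPM in THRB KO, a log2 fold change of 0.07 with a 95% confidence interval from -0.01 to 0.16.

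Of the nuclear members, the lowest log2 fold changes belonged to small accessory subunits. Ndufa12 of complex I (chr10:94198720-94221443) had 26.0, 43.8 and 66.6 CPM in THRB WT and 27.1, 41.2 and 61.5 CPM in THRB KO, at -0.14 ± 0.12 (SE, adjusted p = 0.708). Uqcrq of complex III had 364, 454 and 552 CPM in THRB WT and 351, 409 and 495 CPM in THRB KO, at -0.11 ± 0.06 (adjusted p = 0.475), and Ndufa13 of complex I stood at -0.11 ± 0.07 (adjusted p = 0.571). All 3 overlapped between genotypes. At the other end, Cox7a1 stood at 0.20 ± 0.10 (adjusted p = 0.406) at its level of about 3 CPM. Ndufa12 also shares sequence with a pseudogene, Gm15920 (chr5:130188395-130188796), which matches 402 of its bases with the differences A225G and T504C (positions from the first base of the Ndufa12 transcript, member base first). The stretch around the former is shown, with the differing base in capitals, since Gm15920 took 15.3% to 45.1% of the counts of the pair.
Ndufa12: gaagacaaatatggAaataaatactacga
Gm15920: gaagacaaatatggGaataaatactacga
The sum of both came to 65.5 ± 10.2 CPM (THRB WT, SD, n = 18) and 59.6 ± 8.31 CPM (THRB KO), again within the spread. In all, 14 of the 87 nuclear members had a counted copy at 98% identity or more, among them Atp5g1, whose copy Gm10039 took a median of 21.0% of the pair, and Atp5l, whose copy Gm10221 took 21.6%.

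**Figure D2:**
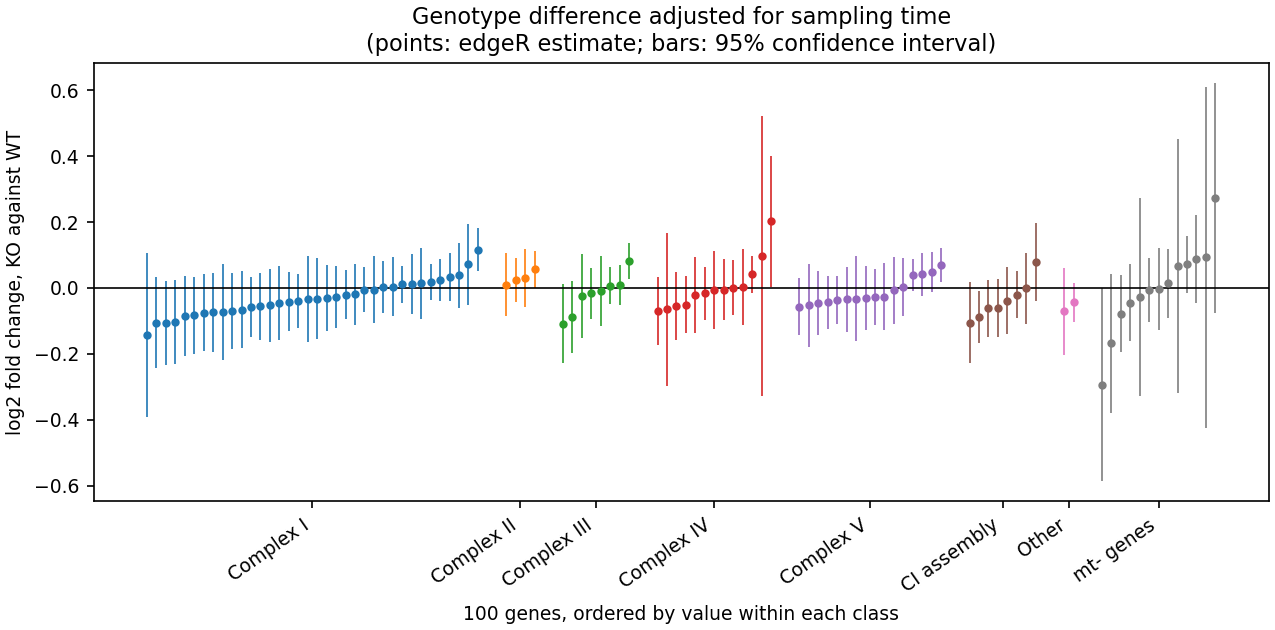
Log2 fold change of THRB KO against THRB WT, adjusted for sampling time (edgeR), for each of the 100 members, ordered by value within each class; bars are 95% confidence intervals. Nuclear subunits lie within 0.15 of 0 except for Cox7a1 at 0.20, and the widest intervals belong to mt-Nd4l, Cox6b2, mt-Atp8, mt-Atp6, mt-Nd3 and mt-Co3.

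The sign of these small differences followed the annotated exon length of the genes, in members and in other genes alike. Of the nuclear members with under 1000 bases of exon 2 of 20 were higher in THRB KO (median log2 fold change -0.05), of those from 1000 to 2000 bases 9 of 34 (-0.03) and of those above 2000 bases 18 of 33 (0.00362). Protein-coding genes that are no members, with a mean of 40 CPM or more, had medians of -0.09 (n = 76), -0.06 (n = 388) and 0.01 (n = 2671) in the same classes. In each class the members' median lay nearer to 0 than that of the other genes, a difference that was not tested. The members were taken without the minimum of 40 CPM, so the 2 sets are not matched in level.

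Between single mice the nuclear subunits moved together, over a range larger than the genotype difference. The mean deviation of 76 subunits with a mean of 50 or more counts from their averages ranged from -0.21 to 0.21 on the log2 scale, at 0.01 ± 0.12 (THRB WT, SD, n = 18) and -0.01 ± 0.11 (THRB KO). It followed the level of short against long genes in the same library, the mean log2 CPM of 76 non-member genes under 1000 bases minus that of 2102 above 3000 bases. Across 36 mice Pearson's r was 0.80 and Spearman's rho 0.84, r was 0.84 without the 2 mice farthest out, 0.81 within THRB WT and 0.86 within THRB KO, and both quantities come from the same libraries. Both also differed by the letter (a, b or c) that the labels give the mice of a group. The subunit deviation was 0.10 ± 0.07 for letter a (SD, n = 12), -0.08 ± 0.07 for b and -0.02 ± 0.12 for c, and the short-against-long level 0.15 ± 0.13, -0.12 ± 0.14 and -0.03 ± 0.18. For letter a the subunit deviation was above 0 in 10 of 12 mice, all 6 of THRB WT among them, and for letter b in 2 of 12. The running numbers in the labels of letter a all lay below those of b and c. Within a letter the relation was weaker for a (r = 0.43, rho = 0.45) and b (r = 0.39, rho = 0.30, and r = 0.15 without the 2 mice farthest out) and close for c (r = 0.92, rho = 0.93), so the pooled value rests in part on differences between letters. The labels do not say what a letter stands for. Over all mice the relation was seen for the 19 short subunits (r = 0.84) and, more loosely, for the 29 above 2000 bases (r = 0.67). The short-against-long level was 0.07 ± 0.17 (THRB WT) and -0.07 ± 0.18 (THRB KO; SD, n = 18, centred). With this level as a covariate, a choice made after the data were seen, the median log2 fold change of the nuclear members turned from -0.03 to 0.05, the values of Ndufa12, Uqcrq and Ndufa13 turned positive, and 2 members, Ndufa1 and Ndufc1, passed the threshold as higher in THRB KO (against 0.739% of all genes). The members with an unadjusted genotype p under 0.05 rose in number from 7 to 37, against 9.33% of all genes with the covariate. The source of the variation by length was not tested.

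**Figure D3:**
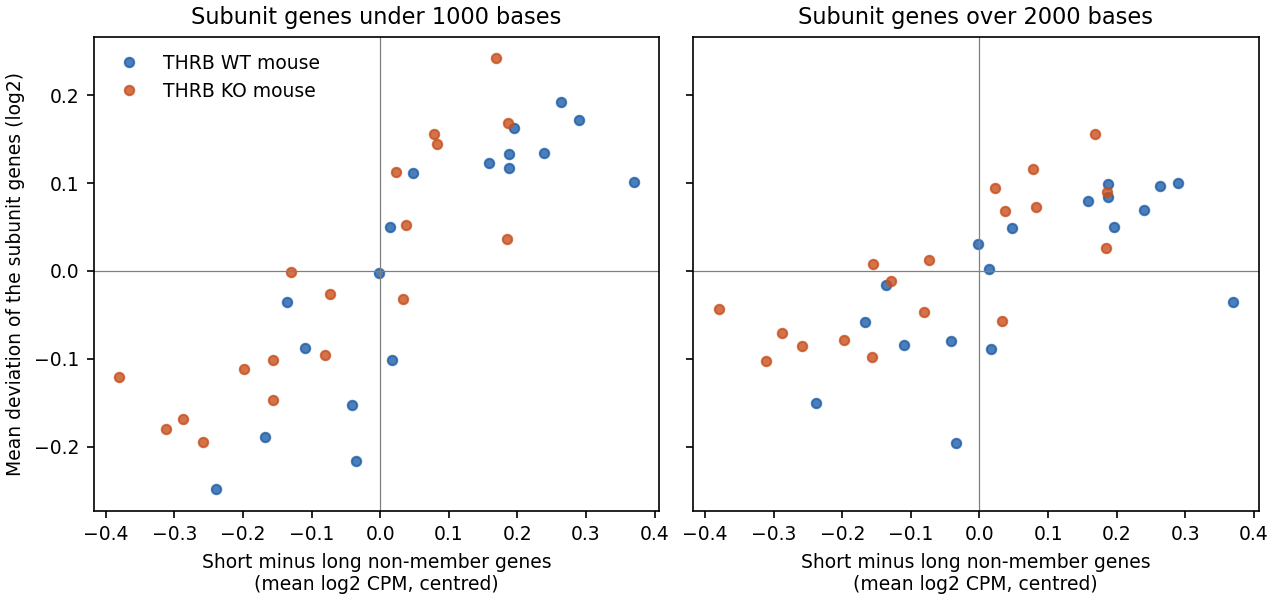
Mean log2 deviation of 19 subunit genes under 1000 bases (left) and of 29 above 2000 bases (right) in each mouse, against the level of short minus long non-member genes in the same library (log2 CPM, centred). Each point is 1 of 36 mice; in both panels points rise from lower left to upper right, with THRB WT and THRB KO intermingled.

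Sampling time moved few members. Of all tested genes 8106 (45.0%) varied with sampling time (edgeR, genotype as a covariate), but of the 100 members only 6 (6.0%), namely 3 of the 8 complex I assembly factors, both other nuclear members and mt-Cytb. None of the 77 nuclear subunits passed, and 2 of them had an unadjusted p under 0.05, against 51.5% of all genes. DESeq2 called 9 members, the same 6 with the subunits Atp5a1, Atp5b and Uqcrc2, against 49.3% of all genes for which it gave an adjusted p.

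Ndufaf4 (chr4:24898083-24905001), an assembly factor of complex I, had the clearest course. Its level over the 6 mice of both genotypes was 29.6, 34.9 and 37.6 CPM (lowest, median, highest) at ZT6 and 53.9, 57.1 and 59.2 CPM at ZT14, with medians of 34.4 at ZT2, 47.1 at ZT10, 46.7 at ZT18 and 42.0 at ZT22. Every mouse at ZT14 was above every mouse at ZT2 and ZT6 (adjusted p = 4.37e-07). A 24 h cosine gave an amplitude, the log2 distance from mean to peak, of 0.40 (THRB WT) and 0.31 (THRB KO), with peaks at ZT14.9 and ZT14.8.

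Atp5s (chr12:69724950-69744660), known as coupling factor B of ATP synthase, ran nearly opposite. It had 5.14, 5.53 and 6.81 CPM at ZT6 and 2.85, 3.48 and 4.31 CPM at ZT18, with no overlap between these times (adjusted p = 2.42e-06). Its amplitudes were 0.36 (THRB WT) and 0.39 (THRB KO), with peaks at ZT4.98 and ZT5.39. Cox7a2l (chr17:83501919-83514333), which links complexes III and IV in respiratory supercomplexes, had 104, 112 and 118 CPM at ZT10 and 79.7, 90.7 and 97.1 CPM at ZT22, again without overlap (adjusted p = 6.56e-07). Its amplitudes were 0.15 (THRB WT) and 0.21 (THRB KO), with peaks at ZT9.23 and ZT8.92.

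The other 3 calls were weaker. Ndufaf7 (chr17:78937136-78948052), a methyltransferase that acts on complex I during assembly, had 13.97, 14.9 and 18.1 CPM at ZT2 and 11.2, 12.0 and 13.5 CPM at ZT14, without overlap (adjusted p = 0.0012), with peaks at ZT1.65 in THRB WT and ZT0.722 in THRB KO. Ndufaf6 (chr4:11051045-11076205), an assembly factor of the membrane part of complex I, had 12.7, 15.5 and 19.2 CPM at ZT10 and 11.2, 12.5 and 13.8 CPM at ZT2, with overlap (adjusted p = 0.0021). mt-Cytb (chrMT:14145-15288) had 11590, 12690 and 13800 CPM at ZT22 and 8083, 10130 and 11800 CPM at ZT6, also with overlap (adjusted p = 0.0173). Each of these 3 was lost when the mice of 1 letter were left out, where 32.5% to 35.5% of all genes were called. mt-Cytb was lost without a (edgeR, adjusted p = 0.324) or c (0.124), Ndufaf6 without a (0.195), and Ndufaf7 without b (0.0619) or c (0.072). The peaks of the 3 called assembly factors lay at different times, near ZT15 (Ndufaf4), ZT1 (Ndufaf7) and between ZT12.8 and ZT15.4 (Ndufaf6). Of the 5 nuclear genes among them, 3 had a promoter window (Ndufaf4, Ndufaf7 and Cox7a2l), and the NRF1 letters shown for Ndufaf4 were the only match to the 6 motifs in these windows.

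**Figure D4:**
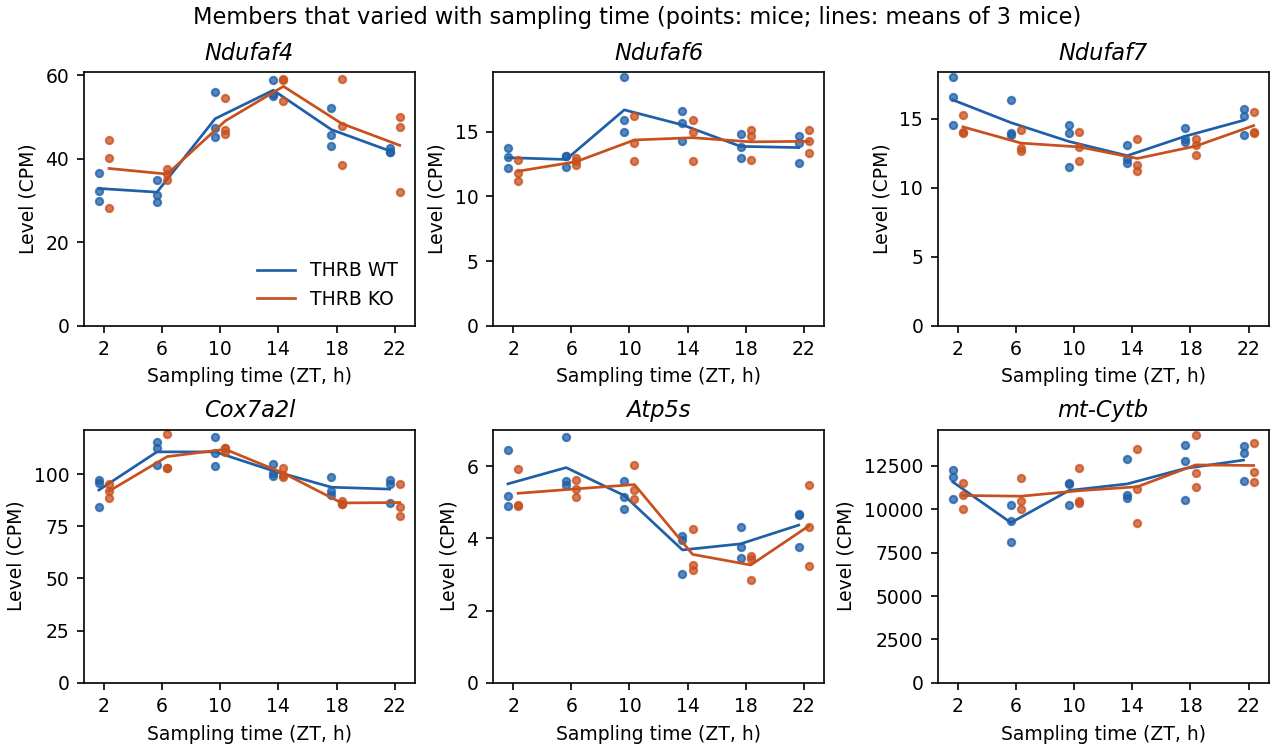
Level in CPM of the 6 members that varied with sampling time, at ZT2 to ZT22, with 1 point per mouse and lines through the means of 3 mice of each genotype. The means of Ndufaf4 are highest at ZT14 in both genotypes, and those of Atp5s at ZT6 in THRB WT and ZT10 in THRB KO. The lines of THRB WT and THRB KO run close together.

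The amplitudes give the same picture without a threshold. The median amplitude (log2, mean of both genotypes) was 0.06 over the 76 nuclear subunits with a mean of 50 or more counts, with a highest value of 0.18 (Ndufa12), against 0.17 over all 11918 genes at that depth. None of the 76 reached 0.2, against 40.5% of all genes at that depth, and 5 reached 0.1, against 75.2%. Over all nuclear subunits of a complex the median was 0.0627 for complex I, 0.0467 for complex II, 0.0604 for complex III, 0.065 for complex IV and 0.066 for complex V. The assembly factors had a median of 0.11 and the mitochondrial genes 0.13. The mitochondrial genes above 0.2, namely mt-Nd4l (0.48), mt-Nd3 (0.32), mt-Co3 (0.28), mt-Atp8 (0.26) and mt-Atp6 (0.23), are all among those with a coefficient of variation over 35%, and none of these passed the test of sampling time.

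**Figure D5:**
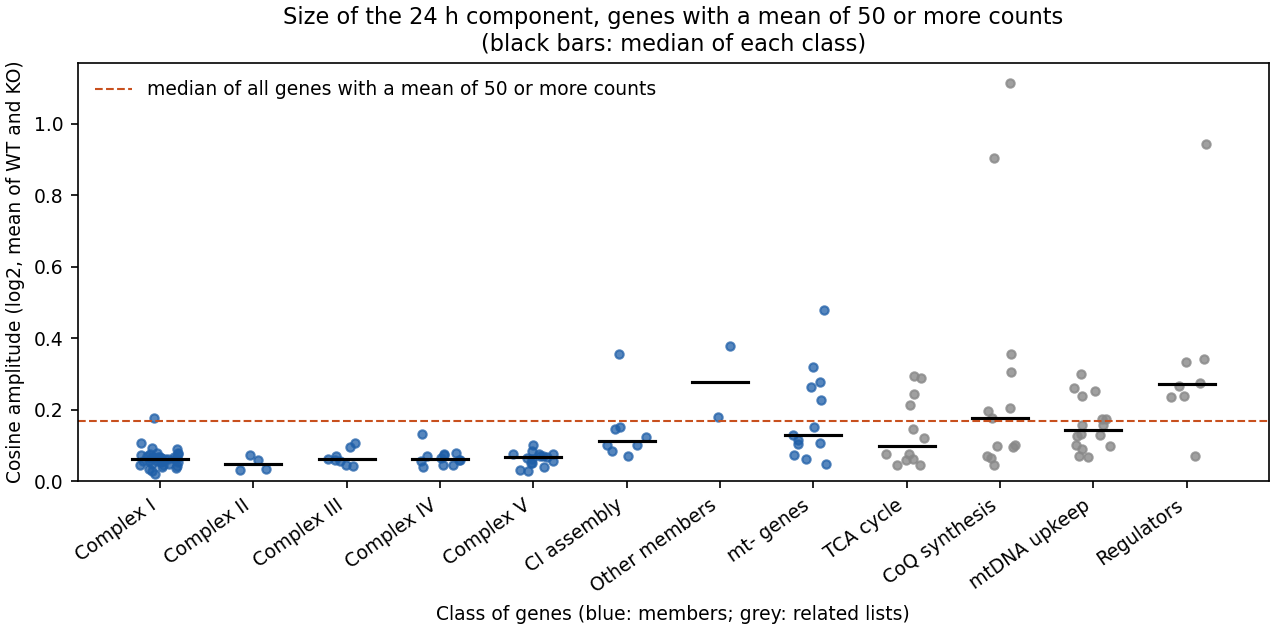
Amplitude of the 24 h cosine (log2, mean of THRB WT and THRB KO) of each gene with a mean of 50 or more counts; blue points are members by class, grey points related genes, black bars class medians, and the dashed line is the median of all such genes (0.17). Subunits of complexes I to V sit below the line with the exception of Ndufa12, whereas coenzyme Q genes and regulators reach 1.11 and 0.94.

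The daily course of the members did not differ detectably by genotype. A rhythm was called for 6 members in THRB WT (35.1% of all genes) and 5 in THRB KO (31.5% of all genes), with 9 and 13 members at an unadjusted p under 0.05 (44.1% and 40.7% of all genes). Atp5s, Cox7a2l, Ndufaf4 and Ndufaf7 were called in both, Ndufaf6 and mt-Cytb in THRB WT and mt-Nd1 (adjusted p = 0.0462) in THRB KO. The test of the difference between the curves called 0 members (edgeR, 0 of all genes, and 0 members with an unadjusted p under 0.05 against 3.07% of all genes), and the test of genotype by sampling time also called 0 (0 of all genes, and 0 members with an unadjusted p under 0.05 against 2.69%). DESeq2 called 0 members in both, and 0 of all genes. A call in 1 genotype alone is therefore not shown to differ from the other.

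Genes that regulate, feed or maintain the respiratory chain were followed over the day as separate lists. Of 10 regulators of respiratory genes 8 varied with sampling time (against 45.0% of all genes), of 13 genes of coenzyme Q synthesis 8, of 12 genes of the citric acid cycle 7, of 16 genes that transcribe or maintain mitochondrial DNA 8, of 27 assembly factors outside the name pattern 11 and of 9 other carriers and subunits 4. Ppargc1b, a PGC-1 coactivator, had amplitudes of 0.999 (THRB WT) and 0.89 (THRB KO) with peaks at ZT8.33 and ZT9.01 (adjusted p = 1.21e-11). Yy1 had 0.26 and 0.27 and peaked at ZT7.82 in both (adjusted p = 6.3e-11), Gabpa 0.25 and 0.23 (peaks at ZT5.88 and ZT5.57), and Esrra 0.33 and 0.22 (peaks at ZT14.03 and ZT14.6). Nrf1 itself had only 0.04 and 0.10 (adjusted p = 0.0468).

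In coenzyme Q synthesis, Coq10b, a chaperone of coenzyme Q, had amplitudes of 1.12 (THRB WT) and 1.11 (THRB KO), peaking at ZT11.4 and ZT11.7. Coq8a, an atypical kinase of the pathway, had 0.87 and 0.95, peaking at ZT0.252 and ZT23.8. Cytochrome c, Cycs, the carrier between complexes III and IV, had 0.21 and 0.23 with peaks at ZT18.9 and ZT17.8, while cytochrome c1, Cyc1, and Cox4i1, subunits of these same complexes that the name pattern does not take, had at most 0.06 and 0.07 and passed neither the test of time nor that of genotype. Twnk, the helicase of mitochondrial DNA, peaked at ZT17.5 and ZT18.5 (0.31 and 0.29), and Top1mt, its topoisomerase, at ZT2.15 and ZT2.25 (0.27 and 0.26). The ribosomal RNAs of mitochondrial DNA, mt-Rnr1 and mt-Rnr2, both varied with time, mt-Rnr2 with amplitudes of 0.49 and 0.48 and peaks at ZT11.8 and ZT11.0, whereas 12 of the 13 mRNA genes did not pass the test of sampling time. They took only 0.0725% to 0.205% of counts, in libraries selected for poly-A tails.

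By genotype, 3 genes of these lists passed the threshold, all higher in THRB KO. They were 1 of the 9 other carriers and subunits and 2 of the 12 citric acid cycle genes. Of all genes 0.950% were called, 0.506% as higher. Gpd2, the mitochondrial glycerol-3-phosphate dehydrogenase that feeds electrons to coenzyme Q and is known to be induced by thyroid hormone, had 18.2, 26.5 and 39.0 CPM (lowest, median, highest) in THRB WT and 26.2, 35.97 and 44.4 CPM in THRB KO. Most THRB KO mice lay above the THRB WT median, with overlap, and the log2 fold change was 0.36 ± 0.07 (SE, adjusted p = 0.00202), higher at 6 of 6 sampling times. The call was lost without the mice of letter a (adjusted p = 0.0534) or c (0.0713), while the log2 fold change was 0.42 and 0.28. Suclg1 and Sucla2 encode subunits of the ATP-forming succinyl-CoA ligase of the citric acid cycle. Suclg1 had medians of 208 and 233 CPM in THRB WT and THRB KO, at 0.13 ± 0.03 (adjusted p = 0.00731), and Sucla2 medians of 131 and 144 CPM, at 0.14 ± 0.03 (adjusted p = 0.0146). With the mice of 1 letter left out, the log2 fold change of Suclg1 stayed between 0.117 and 0.148 and its adjusted p between 0.0336 and 0.402, with the call lost without a and without c. That of Sucla2 stayed between 0.11 and 0.149, and its adjusted p, from 0.0551 to 0.513, passed under none of these. With sampling times pooled both calls were lost (0.102 and 0.0519), and that of Sucla2 also without a filter on low counts (0.0528) and with the length covariate (0.0693), at log2 fold changes of 0.117 to 0.139. None of the 10 regulators, 27 assembly factors, 13 coenzyme Q genes or 16 genes of mitochondrial DNA upkeep was called by genotype. At a share of 0.950% over all genes, lists of this size can hold no call.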

How the data were processed

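Liver mRNA of 36 mice (2 genotypes, 6 sampling times, 3 mice each) was sequenced from poly-A selected, non-directional, paired-end libraries. Per the submitters' processing notes, the authors aligned reads with HISAT2 to GRCm38 (mm10) and counted them per gene with featureCounts. Versions and the treatment of reads with several matches are not given in the sources used here. They deposited whole-number counts without normalization or filter, beside gene_length, the exon bases of each gene, an annotation (unit: other) that was used here for CPM per kb.

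From these deposited counts, the 17994 genes with at least 100 counts over all libraries were fitted with edgeR 4.0.16 (limma 3.58.1, R 4.3.3, TMM, quasi-likelihood F tests). Sampling time entered as a factor, and 24 h cosines were fitted for each genotype. P-values were adjusted over all genes after Benjamini and Hochberg and called below 0.05. Standard errors were taken from the F statistic. CPM values use TMM library sizes, and log2 CPM a prior count of 2. The scripts were tested on simulated counts.

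Alternatives were DESeq2 1.42.0, RLE size factors, library sizes without mt- genes, other filters, and time pooled or as a cosine. Further ones were the mouse letter as a block (for genotype, the letter within each sampling time) and each letter left out. A covariate for exon length was added later. Copies were found with BLAST 2.17.0+ among annotated transcripts, at 95% identity or more over 150 bases. Members, gene lists and tests were chosen with earlier results of these data known. Genes were named by rule: all mt- genes, the 5 highest and 5 lowest fold changes, members called by time, isoform families, the 5 nuclear members highest per length, and members within 20 Mb of Thrb on chromosome 14, of which there were 0. Other genes were named for their role or call after their values were seen. The mice were separate animals, and no libraries of a group were alike within counting noise.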

Additional observations from a re-analysis of the deposited data

Results flagged for a closer look

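Signal below the minimum of 100 counts was seen for 2 genes of the name pattern that entered no comparison. Cox6a2, the muscle form of a complex IV subunit, had 50 counts in all, spread over 26 of 36 libraries with 21 in THRB WT and 29 in THRB KO. Cox8b, another muscle form, had 43 counts over 20 libraries, 21 in THRB WT and 22 in THRB KO. Both sums exceed the 3 counts that a count of 0 allows, and no library held more than 5 counts of Cox6a2 or 6 of Cox8b. The summed skeletal muscle markers of each library reached at most 0.186 CPM, with Myh4 at 0 in every library.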

How the results depend on the processing

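Of 262 values under alternatives, 241 kept their direction and side of the threshold or moved by less than the spread. The count of members called by genotype was 0 by edgeR, 3 with DESeq2 (1.98% of all genes with an adjusted p were called), 1 with the mouse letter as a replicate block (2.15% of all genes) and 2 with the length covariate (0.739%), which was chosen after seeing the data. For sampling time the count of 6 (45.0% of all genes) became 10 with the replicate block (47.3%) and 13 with the covariate (48.0%). With 1 letter left out it became 4 to 9 (32.5% to 35.5% of all genes). For the rhythm in THRB WT the count of 6 (35.1% of all genes) became 3 to 5 with 1 letter left out (20.8% to 24.9%). In THRB KO the count of 5 (31.5% of all genes) became 3 without a filter on low counts (16.2%). It became 12 with the replicate block (33.2%). With 1 letter left out the THRB KO count became 3 to 5, where at most 22.4% of all genes were called. The labels do not say what a letter stands for. In 15 of 18 pairs of the same letter and sampling time the running numbers of the labels lay at most 10 apart, and deviations from the group means correlated at -0.04 to 0.22, above 0 in 17 pairs and above 0.1 in 9. All running numbers of letter a lay below those of b and c. Since not every pair exceeded 0.1, the block was kept as an alternative, and whether a letter marks a shared batch or litter was not tested. Ndufs1 was the member called by genotype under the block (adjusted p = 0.0248). It was not called with any 1 letter left out, with sampling times pooled or with the covariate. Differences that changed sign, none of them called, were Ndufa12 (0.0487), Uqcrq (0.0152), Ndufa13 (0.0369) and mt-Nd4l (-0.00807) with the covariate, and mt-Nd4l from -0.127 without letter a to 0.278 without letter c. The median log2 fold change of the mitochondrial members ran from -0.07 without a to 0.08 without c. That of the nuclear members ran from -0.05 without b to -0.01 without c, and turned positive, at 0.05, with the covariate. The cause of these shifts was not tested. Depth limits Cox6b2 (588 counts), Ndufa4l2 (2230) and mt-Atp8 (4065) most. How reads shared with near-identical annotated copies were counted is unknown for 5 of the 6 low mitochondrial genes. For mt-Atp8 a copy outside annotated transcripts was not searched for.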
